A study of Mus musculus with 37 samples.

Results

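Cytochrome P450 enzymes were measured in mouse colon as 82 of the 19938 genes on the array. A member was any gene whose whole symbol is Cyp followed by digits, a letter and digits, or Cyp51, measured by a probe cluster annotated to that symbol alone. Each member had 1 such cluster. The members fall into 15 families, with 43 in family 2, 13 in family 4, 6 in family 3, and 3 each in families 1, 11 and 26. A further 7 P450 symbols occur only in clusters shared with other genes, and these, like Cyp24a1, were not analysed here.

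The study examined colon from mice lacking Timp1, a tissue inhibitor of matrix metalloproteinases, and from wild-type mice, after acute or chronic dextran sodium sulphate (DSS), a polymer that injures the colon lining. The knockout (KO) strain was B6.129S4-Timp1tm1Pds/J, a targeted allele from 129S4 on a C57BL/6 background, and the wild type (WT) was C57BL/6J. The groups were KO acute DSS (6 mice), KO acute control (3), WT acute DSS (5), WT acute control (3), and 5 mice each of KO chronic DSS, KO chronic control, WT chronic DSS and WT chronic control. Sex, age, DSS dose and the length of each phase are not given in the sources used here, nor is whether the genotypes were littermates. Each mouse gave 1 array, read as log2 signal after robust multi-array averaging (RMA). A difference of 1 on this scale is a 2-fold difference in signal. Signals of different genes come from different probes and were not compared as amounts.

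Array medians lay between 7.67 and 7.76 after RMA, which normalizes the arrays, so they cannot show that the samples were alike. Timp1 averaged 7.61 ± 0.57 in KO acute DSS colon (SD, n = 6) and 10.75 ± 1.04 in WT acute DSS colon (n = 5). In acute controls it averaged 7.01 ± 0.10 in KO and 7.63 ± 0.12 in WT colon (n = 3 each). In chronic DSS it averaged 7.03 ± 0.19 in KO and 8.41 ± 0.84 in WT colon (n = 5 each). Chronic controls were not separated by it, at 7.14 ± 0.29 in KO and 7.13 ± 0.12 in WT colon (n = 5 each). Where its probes lie relative to the targeted part is not known here. A list of 9 pan-epithelial genes such as Epcam and Krt8 averaged between 10.54 and 12.33 over the 37 arrays, and 7 hepatocyte genes between 6.74 and 7.48. The mean of 10 mature colonocyte genes was 11.08 and 9.64 in WT acute DSS replicates 1 and 3, but 12.53 to 12.61 in the other three mice of that group and 12.77 to 12.94 in WT acute controls, so these 2 arrays stand apart. Animal numbers form 4 series. KO acute DSS replicates 1 to 3 share the series of all WT acute mice, and KO acute DSS replicates 4 to 6 share that of the KO acute controls. Genotype and series therefore cannot be told apart among acute controls. Nor can they in chronic DSS, where all 5 KO mice had 1 series and all 5 WT mice another. Of the WT chronic controls, 3 share the series of the WT chronic DSS mice and 2 that of the KO chronic mice. Y-linked genes were above Xist on 2 arrays, KO acute control replicate 2 and KO acute DSS replicate 4.

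P450 enzymes hold a heme that uses oxygen and electrons from a partner protein to oxidise small molecules. Families 1 to 3 are known mainly for drugs, dietary compounds and other foreign chemicals, and several Cyp2c and Cyp2j enzymes also oxidise arachidonic acid. Family 4 hydroxylates fatty acids and eicosanoids, including leukotriene B4, while most other families act on cholesterol, bile acids, steroid hormones, vitamin D or retinoic acid. In the gut they are best known as part of the chemical barrier of the absorptive epithelium.

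Most members lie beside close relatives. In the RefSeq annotation of GRCm38.p6, 61 of 81 placed members fall into 10 blocks with at most 9 other coding genes between neighbours. These include the Cyp2c block on chromosome 19, the Cyp2d block on 15, the Cyp4f block on 17, and a block on 7 that holds Cyp2f2 and Cyp2s1 with Cyp2a and Cyp2b genes. Tandem copies have similar coding sequences, and cross-hybridisation between them was not tested, so values within the Cyp2c, Cyp2d and Cyp3a subfamilies may not be independent.

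Promoters of 300 bases around the start site were given by RefSeq for 63 members, 71 promoters in all. The motif CAAAGTCCA, one form of the site bound by the hepatocyte and gut epithelial factor Hnf4a, was found on either strand in 7 of 71 member promoters (9.86%) and in 0.475% of all 32851 promoters. Its 7 holders were Cyp2c65, Cyp2c67, Cyp2c68, Cyp2c70, Cyp3a11, Cyp3a16 and Cyp8b1. TATAAA occurred in 35.2% of member promoters against 13.6% of all, and the xenobiotic response core GCGTG in 22.5% against 32.4%. TTTATNG, a motif of the intestinal factor Cdx2 that can overlap TATAAA, was in 15.5% against 10.9%, TTATGNAA, the D-box of clock output factors, in 7.04% against 3.38%, and TTGCGNAA, a Cebp motif, in 0% against 0.798%; all were searched on both strands. Family members share ancestry, so these shares do not count independent promoters, and a match of letters is not evidence of binding.

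The promoters shown here belong to Cyp2c67 and Cyp2c68, which were lower in DSS colon, to Cyp2c65 and Cyp2c55 from the same block, which varied most between mice, and to Cyp2f2, which was lower in 3 of the 4 DSS comparisons. They run 5′ to 3′ on the gene's strand, with TATAAA and CAAAGTCCA in capitals; CAAAGTCCA begins at position -125 from the start site in Cyp2c67, -77 in Cyp2c68 and -116 in Cyp2c65. In GRCm38.p6 they lie at chr19:39648993-39649292 (minus strand) for Cyp2c67, chr19:39741052-39741351 (minus) for Cyp2c68, chr19:39060756-39061055 (plus) for Cyp2c65, chr19:39006769-39007068 (plus) for Cyp2c55 and chr7:27119705-27120004 (plus) for Cyp2f2.
Cyp2c67: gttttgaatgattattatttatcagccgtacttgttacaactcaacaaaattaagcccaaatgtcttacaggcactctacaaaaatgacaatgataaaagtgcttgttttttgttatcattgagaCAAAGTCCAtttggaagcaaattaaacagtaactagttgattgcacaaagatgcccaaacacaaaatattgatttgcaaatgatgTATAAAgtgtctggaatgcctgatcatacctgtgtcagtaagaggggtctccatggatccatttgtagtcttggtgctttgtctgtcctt
Cyp2c68: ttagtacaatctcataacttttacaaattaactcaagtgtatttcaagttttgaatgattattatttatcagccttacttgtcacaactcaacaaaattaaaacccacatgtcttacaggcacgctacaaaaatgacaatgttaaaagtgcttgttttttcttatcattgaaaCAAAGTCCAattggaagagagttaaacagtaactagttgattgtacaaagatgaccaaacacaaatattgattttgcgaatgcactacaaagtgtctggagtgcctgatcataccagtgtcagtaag
Cyp2c65: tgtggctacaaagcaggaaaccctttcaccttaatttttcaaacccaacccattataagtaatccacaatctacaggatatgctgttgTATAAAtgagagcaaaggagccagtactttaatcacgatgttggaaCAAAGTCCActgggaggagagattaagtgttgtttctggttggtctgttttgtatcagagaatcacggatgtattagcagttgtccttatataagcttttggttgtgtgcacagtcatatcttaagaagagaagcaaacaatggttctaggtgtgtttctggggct
Cyp2c55: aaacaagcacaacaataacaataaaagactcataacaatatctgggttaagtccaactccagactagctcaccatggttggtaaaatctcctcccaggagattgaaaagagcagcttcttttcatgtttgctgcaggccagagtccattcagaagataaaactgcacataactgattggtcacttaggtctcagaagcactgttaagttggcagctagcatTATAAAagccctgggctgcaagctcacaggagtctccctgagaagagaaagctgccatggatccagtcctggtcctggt
Cyp2f2: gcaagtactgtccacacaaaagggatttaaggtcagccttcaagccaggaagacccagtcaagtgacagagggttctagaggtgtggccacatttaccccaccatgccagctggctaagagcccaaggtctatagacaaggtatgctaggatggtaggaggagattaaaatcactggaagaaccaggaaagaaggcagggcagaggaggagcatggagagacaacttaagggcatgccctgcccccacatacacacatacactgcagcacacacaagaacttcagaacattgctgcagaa
The Cyp2f2 promoter held neither motif in this window.

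In WT colon more P450 genes were lower than higher after acute DSS, and the deepest falls were in the Cyp2c, Cyp2d and Cyp2f subfamilies. In a linear model over all 37 arrays, with p adjusted by the Benjamini-Hochberg method over all 19938 genes, 18 of 82 members were lower and 8 higher at an adjusted p under 0.05. Of all genes, 21.8% were lower and 19.4% higher, against 22% and 9.76% of members, so the share of members that fell was that of the whole array. The median difference was -0.07 over members and 0.01 over all genes. Leaving out WT acute DSS replicates 1 and 3 gave 24 members, 29.3% against 29.6% of all genes in either direction. Of the 24, 21 were among the 26, and the 5 no longer called were Cyp2b10, Cyp2d9, Cyp2s1, Cyp2w1 and Cyp4f18.

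After chronic DSS in WT colon 13 members were lower and 1, Cyp4f18, was higher. The shares were 15.9% of members against 8.58% of all genes for lower, and 1.22% against 5.79% for higher. Of these 13 genes, 9 were also among the 18 that were lower in WT acute DSS, where other mice served as controls. The median difference was 0 over members and over all genes. Within the animal series that the WT chronic DSS mice share with 3 of their controls, 21 members passed, 25.6% against 15.5% of all genes in either direction.

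In KO colon fewer members passed. After acute DSS 2 members were lower, 2.44% against 0.853% of all genes, and none was higher, against 0.266% of all genes. An unadjusted p under 0.05 was found for 20 of 82 members and for 3251 of all 19938 genes. After chronic DSS 4 members were lower, 4.88% against 5.47% of all genes, and none was higher, against 2.47%. Here 18 of 82 members had an unadjusted p under 0.05, as did 4637 of all 19938 genes. Across the 4 DSS comparisons 22 members were lower at least once, 8 were higher at least once, and 52 passed in none. Such counts were not made over all genes, so these cannot be read as particular to P450 members.

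Of the 82 members, 48 had a mean signal of at most 7.25, which places them in the dimmest 33.33% of all genes, and the median member mean was 6.75 against 8.15 over all genes. Of the members lower in WT acute DSS, 12 had a mean above 7.25.

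**Figure D1:**
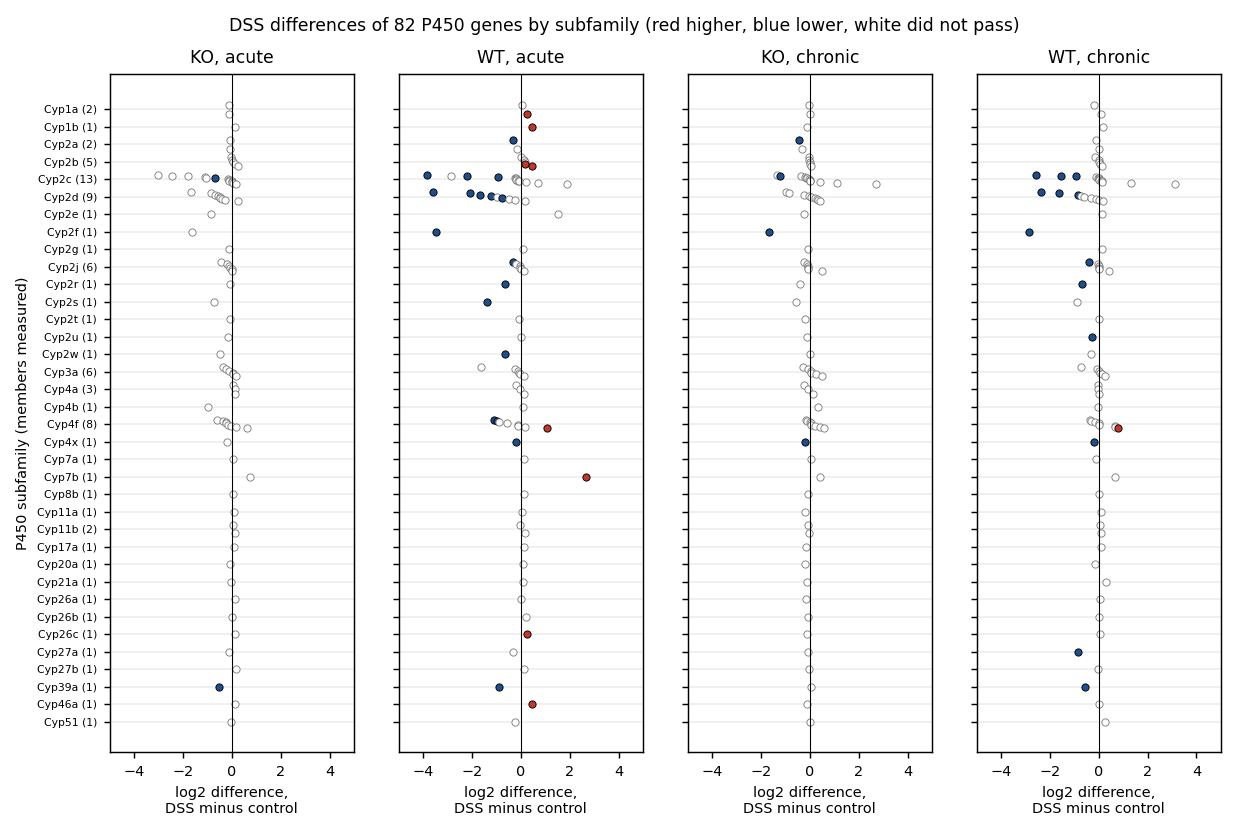
Log2 difference (DSS minus control) of each of the 82 P450 members by subfamily, 1 panel per genotype and phase; each point is 1 gene, blue passed as lower, red as higher, white did not pass. The 5 largest called falls in WT acute DSS are those of Cyp2c68, Cyp2d12, Cyp2f2, Cyp2c67 and Cyp2d13, and WT acute DSS holds 26 of the coloured points, against 2 in KO acute DSS.

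Cyp2f2, known in mouse for activating naphthalene in the airway, was the member with the smallest adjusted p in WT acute DSS colon. Its log2 signal was 7.28, 7.00, 6.47, 7.22 and 7.78 in WT acute DSS mice, against 10.54, 10.45 and 10.83 in WT acute controls. The groups were far apart, with a difference of -3.46 ± 0.45 (SE), an 11-fold lower signal (adjusted p = 9.03e-07). In WT chronic DSS mice it was 7.38, 7.37, 8.56, 9.13 and 8.12, against 10.82 to 11.10 with a median of 10.99 in their controls. Every chronic DSS mouse was again below every control, by -2.85 ± 0.39 on average (adjusted p = 8.15e-06).

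In KO colon Cyp2f2 was also lower after chronic DSS. It read 9.33, 8.73, 8.46, 8.06 and 9.49 in KO chronic DSS mice, against 10.70, 11.23, 10.23, 10.32 and 9.83 in KO chronic controls, a difference of -1.65 ± 0.39 (adjusted p = 0.00849) with no overlap. In KO acute DSS mice it read 8.95, 7.41, 8.39, 7.38, 9.48 and 7.00, against 8.82, 9.85 and 10.48 in KO acute controls. The acute KO groups overlapped, and the difference of -1.62 ± 0.44 did not pass (adjusted p = 0.0605). The KO and WT acute DSS effects differed by 1.84 ± 0.63, which did not pass either (adjusted p = 0.0503).

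Cyp2c68 and Cyp2c67, whose promoters are printed above, belong to the Cyp2c subfamily of drug and arachidonic acid oxidising enzymes. Cyp2c68 had 4.16, 4.60, 4.30, 7.11 and 7.37 in WT acute DSS mice, against 9.44, 9.08 and 9.49 in WT acute controls, a difference of -3.83 ± 0.71 (adjusted p = 8.43e-05). All WT acute DSS mice were below all controls, but 3 of them lay far below the other two. After chronic DSS it had 6.77, 5.79, 6.68, 8.79 and 6.73 in WT mice, against 9.20 to 10.09 with a median of 9.38 in controls (-2.55 ± 0.62, adjusted p = 0.00463). Only replicate 4 of the WT chronic DSS mice came near the control range.

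Cyp2c67 showed the same pattern at smaller size. It had 5.21, 5.65, 5.31, 6.39 and 6.48 in WT acute DSS mice, against 8.03, 7.77 and 8.23 in WT acute controls (-2.20 ± 0.38, adjusted p = 3.28e-05). The difference was -1.53 ± 0.33 in WT chronic DSS (adjusted p = 0.00149) and -1.20 ± 0.33 in KO chronic DSS (adjusted p = 0.021). In KO chronic DSS mice Cyp2c67 read 7.18, 6.32, 6.36, 5.83 and 7.31, against 8.25, 8.21, 7.25, 7.80 and 7.48 in controls, with 1 DSS mouse above the lowest control; this call was lost when any of 4 arrays was left out. The KO acute difference of -1.11 ± 0.37 did not pass (adjusted p = 0.118), and neither did that of Cyp2c68 (-1.78 ± 0.69, adjusted p = 0.186).

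The Cyp2d genes are mouse relatives of human CYP2D6, which metabolises many drugs. Of 9 measured, 5 were lower in WT acute DSS colon, where 21.8% of all genes were. Cyp2d12 read 5.30, 7.47, 4.79, 5.98 and 6.50 in WT acute DSS mice, against 9.72, 9.24 and 9.90 in WT acute controls (-3.61 ± 0.53, adjusted p = 4.13e-06). Cyp2d13 read 6.20, 6.97, 6.07, 7.39 and 7.53, against 9.01, 8.65 and 9.10 in the controls (-2.09 ± 0.42, adjusted p = 0.000184). Neither gene's groups overlapped. Cyp2d34 read 8.16, 10.45, 6.91, 9.64 and 9.68 in WT acute DSS mice, against 10.71, 10.44 and 10.76 in controls (-1.67 ± 0.41, adjusted p = 0.00167). Its 2 lowest mice were replicates 1 and 3, without which the difference was -0.71. Cyp2d10 (-1.22) and Cyp2d9 (-0.78) were also lower, with overlapping groups in both. The Cyp2d9 call was lost in 4 of 8 refits with 1 array left out.

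In WT chronic DSS, Cyp2d12 (-2.38 ± 0.46, adjusted p = 0.000507), Cyp2d13 (-1.64 ± 0.36, adjusted p = 0.00192) and Cyp2d22 (-0.83 ± 0.23, adjusted p = 0.0122) were lower. Cyp2d12 had 7.17, 6.61, 7.01, 7.93 and 6.77 in WT chronic DSS mice, against 9.25 to 9.86 with a median of 9.35 in controls. No Cyp2d gene passed in KO colon, where the largest differences were -1.67 ± 0.51 for Cyp2d12 in acute DSS (adjusted p = 0.091) and -0.97 ± 0.36 for Cyp2d13 in chronic DSS (adjusted p = 0.0888).

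The mice at the extremes were shared between these 5 genes. KO acute DSS replicates 4 and 6 held the 2 lowest values of their group for Cyp2f2, Cyp2c68, Cyp2c67, Cyp2d12 and Cyp2d13. KO chronic DSS replicate 4 was the lowest of its group for all 5, and WT chronic DSS replicate 4 the highest. The mature colonocyte list averaged 12.70 and 12.23 in KO acute DSS replicates 4 and 6, where the group ranged from 12.12 in replicate 2 to 12.76, and replicate 6 was the lowest of its group for the pan-epithelial list (11.83, the others 12.03 to 12.28). KO chronic DSS replicate 4 was the lowest of its group for the colonocyte list too (12.46, the others 12.77 to 12.95), and WT chronic DSS replicate 4 had 12.78 in a group that ranged from 11.96 to 12.82. The part of epithelial content in these values was not tested. In chronic DSS colon none of the 10 colonocyte genes passed in either genotype, with a median difference of -0.02 in KO and -0.13 in WT mice, while Cyp2f2 and Cyp2c67 were lower in both. In WT acute DSS colon 6 of the 10 colonocyte genes were lower (median -1.13). In bulk tissue fewer cells of a type and less RNA per cell cannot be told apart.

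**Figure D2:**
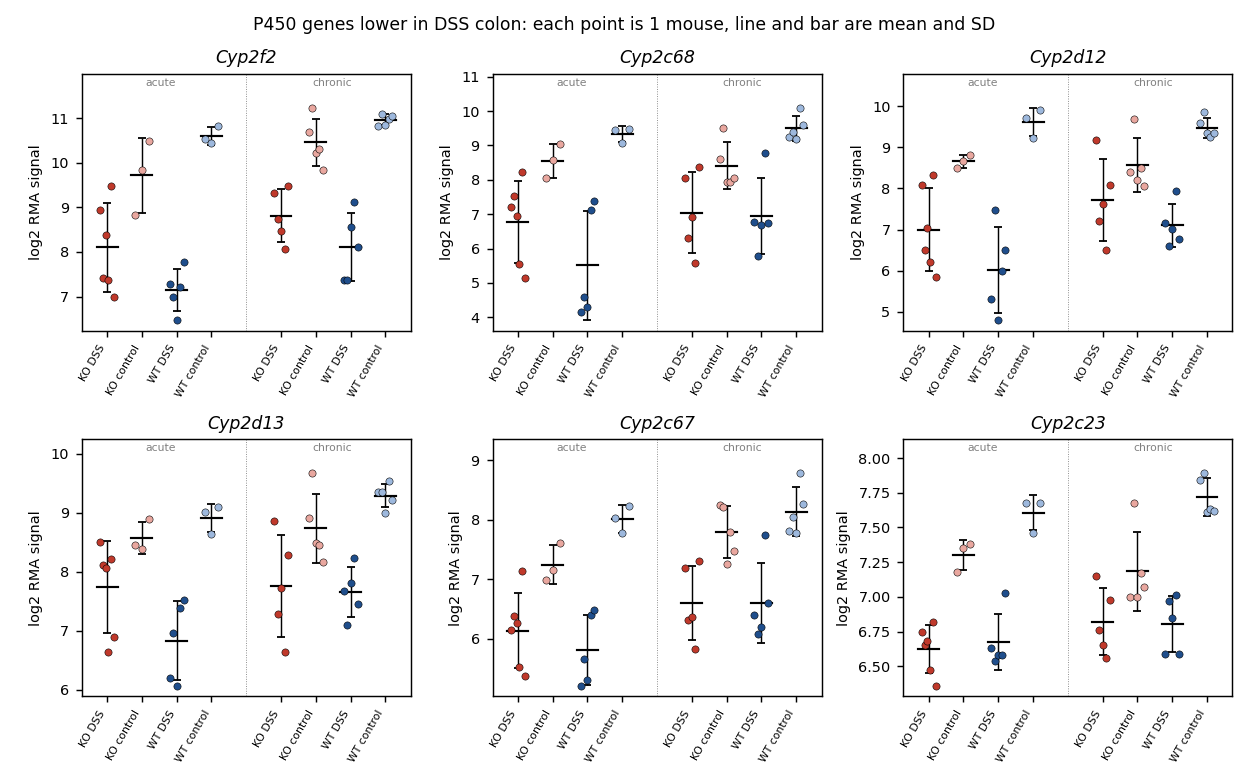
Log2 RMA signal of 6 P450 genes that were lower in DSS colon, 1 point per mouse, in 8 groups on the x axis (red KO, blue WT; dark DSS, pale control), with mean and SD as lines. In WT colon all DSS points of Cyp2f2, at 6.47 to 7.78 in acute and 7.37 to 9.13 in chronic DSS, lie below all control points.

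Cyp2c23 and Cyp39a1 were the 2 members that passed in KO acute DSS colon, and both were also lower in WT acute and WT chronic DSS. Cyp2c23 read 6.75, 6.65, 6.68, 6.47, 6.82 and 6.36 in KO acute DSS mice, against 7.18, 7.35 and 7.38 in KO acute controls, a difference of -0.68 ± 0.14 (adjusted p = 0.0115). It read 6.63, 6.54, 6.58, 6.58 and 7.03 in WT acute DSS mice, against 7.68, 7.46 and 7.68 in WT acute controls (-0.93 ± 0.14, adjusted p = 7.56e-06), and differed by -0.92 ± 0.12 in WT chronic DSS (adjusted p = 7.17e-06). The groups did not overlap in any of these 3 comparisons. In KO chronic DSS the difference was -0.37 ± 0.12 (adjusted p = 0.0624), with overlap.

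Cyp39a1 hydroxylates oxysterols on the way to bile acids. It read 8.85, 8.94, 9.02, 8.96, 9.19 and 8.55 in KO acute DSS mice, against 9.42, 9.59 and 9.37 in KO acute controls (-0.54 ± 0.14, adjusted p = 0.0435). It read 8.52, 8.76, 8.41, 8.90 and 8.76 in WT acute DSS mice, against 9.51, 9.58 and 9.64 in controls (-0.91 ± 0.14, adjusted p = 1.02e-05), and differed by -0.58 ± 0.12 in WT chronic DSS (adjusted p = 0.00131). Again no DSS mouse reached a control in these comparisons, whereas in KO chronic DSS the difference was 0.04 ± 0.12 (adjusted p = 0.888). Within the series that KO acute DSS replicates 4 to 6 share with the KO acute controls, the differences were -0.75 for Cyp2c23 and -0.56 for Cyp39a1. Neither passed there with 3 mice a group. Leaving out 1 array at a time lost the Cyp2c23 call in 3 of 9 refits and the Cyp39a1 call in 7, and the KO acute count was also 0 without the 2 arrays with Y-linked signal.

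Further members fell in WT acute DSS. Cyp2s1, an epithelial enzyme that can oxidise retinoic acid, read 8.24, 9.89, 7.83, 10.55 and 10.43 in WT acute DSS mice, against 10.72, 10.75 and 10.83 in WT acute controls (-1.37 ± 0.38, adjusted p = 0.00458). The 2 lowest were replicates 1 and 3, and without them the difference was -0.47 and did not pass. Cyp2r1, a vitamin D hydroxylase, was lower in WT acute (-0.63 ± 0.20, adjusted p = 0.0102) and WT chronic DSS (-0.69 ± 0.17, adjusted p = 0.00528) without overlap in either. Cyp2w1 (-0.65), Cyp2a12 (-0.33), Cyp2j13 (-0.32) and Cyp4x1 (-0.19) completed the falls in WT acute DSS outside the Cyp2c, Cyp2d and Cyp4f groups. Cyp2a12 read 5.41, 5.68, 5.60, 5.58 and 5.41 in KO chronic DSS mice, against 6.00, 5.97, 5.84, 6.24 and 5.94 in KO chronic controls (-0.46 ± 0.11, adjusted p = 0.00659), without overlap. Cyp4x1 differed by -0.20 ± 0.06 in both KO and WT chronic DSS (adjusted p = 0.0455 and 0.0324), calls lost in 7 and 4 of 10 refits with 1 array left out.

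The Cyp2c genes next to Cyp2c67 and Cyp2c68 did not behave alike. Cyp2c55 oxidises arachidonic acid in mouse and is known in colon. It read 5.90, 7.98, 6.58, 13.16, 12.31 and 12.61 in KO acute DSS mice, against 12.87, 13.06 and 12.39 in KO acute controls. The 3 low mice were replicates 1 to 3, from the animal series of the WT acute mice, and the 3 from the controls' own series overlapped the controls. In WT acute DSS mice it read 7.06, 11.39, 4.94, 11.26 and 10.48, against 11.68, 12.10 and 11.91 in controls, with replicates 1 and 3 lowest. The differences of -3.01 ± 1.25 in KO (adjusted p = 0.217) and -2.87 ± 1.29 in WT acute DSS (adjusted p = 0.0726) did not pass. KO acute DSS replicates 1 to 3 had colonocyte means of 12.76, 12.12 and 12.61, and replicates 4 to 6 of 12.70, 12.67 and 12.23.

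Cyp2c65, Cyp2c66, Cyp4b1, Cyp2j6 and Cyp4f14 were singled out after their values were seen, for the width of their spread. Cyp2c65 read 6.04, 6.39, 6.36, 12.10, 11.14 and 11.52 in KO acute DSS mice, against 11.78, 11.89 and 10.51 in KO acute controls. It read 8.47, 11.49, 5.63, 10.85 and 10.54 in WT acute DSS mice, against 6.47, 8.53 and 7.58 in WT acute controls. The acute controls of the 2 genotypes thus lay apart, by 3.87 ± 1.43 (adjusted p = 0.197), as did their animal series. In chronic DSS its difference was 2.70 ± 1.11 in KO (adjusted p = 0.13) and 3.13 ± 1.11 in WT colon (adjusted p = 0.0549), with 8.63 to 12.32 in KO chronic DSS mice against 6.67 to 9.44 in controls, and 6.76 to 11.62 in WT chronic DSS mice against 6.79 to 7.15. None of these passed.

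Cyp2c66 and the fatty acid hydroxylase Cyp4b1 split KO acute DSS mice the same way. Cyp2c66 had 7.00, 7.26 and 6.84 in replicates 1 to 3 and 10.03, 8.97 and 9.94 in replicates 4 to 6, against 9.74, 9.65 and 8.83 in KO acute controls. Cyp4b1 had 7.06, 7.03 and 7.01 in replicates 1 to 3 and 9.64, 8.69 and 9.05 in replicates 4 to 6, against 9.15, 9.79 and 8.27. For each of these 4 genes the KO acute DSS mice of 1 series were below every KO acute control. The part of the animal series in this was not tested, and no KO acute control has the other series. Cyp2j6, an arachidonic acid epoxygenase, and Cyp4f14, a leukotriene hydroxylase of mouse, were low in WT acute DSS replicates 1 and 3 instead. Cyp4f14 read 7.72, 10.76, 6.86, 10.67 and 10.69 in WT acute DSS mice, against 9.93, 10.43 and 10.33 in controls (-0.89 ± 0.58, adjusted p = 0.224). Cyp2j6 read 9.03, 10.07, 8.55, 10.07 and 10.05 in WT acute DSS mice, against 9.70, 9.72 and 9.79 in controls (-0.18 ± 0.24, adjusted p = 0.567). In both genes the other three DSS mice were above all controls.

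**Figure D3:**
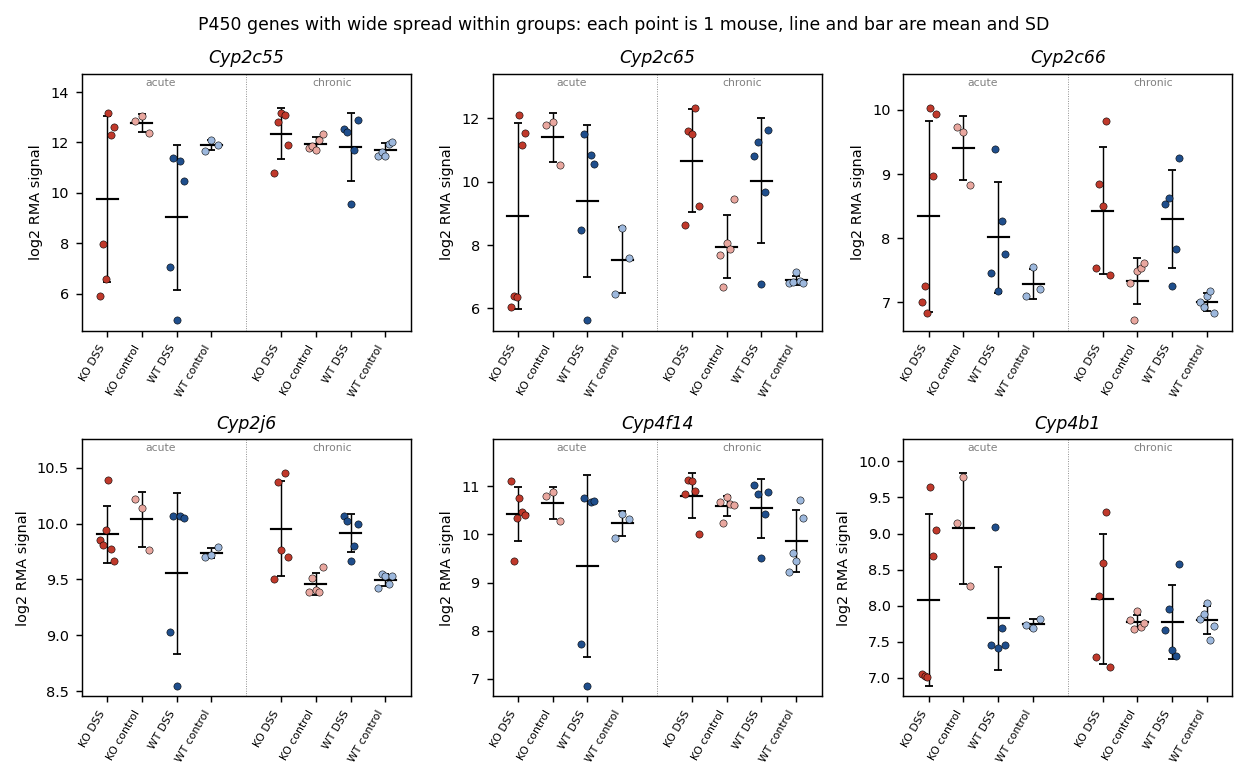
Log2 RMA signal of 6 P450 genes with wide spread within groups, 1 point per mouse, in 8 groups on the x axis (red KO, blue WT; dark DSS, pale control), with mean and SD as lines. Cyp2c55, Cyp2c65, Cyp2c66 and Cyp4b1 form 2 separate sets of 3 points in KO acute DSS colon, for Cyp2c55 at 5.90 to 7.98 and 12.31 to 13.16.

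Among the 13 family 4 members 3 were lower and 1 was higher in WT acute DSS colon. Of all genes, 21.8% were lower and 19.4% higher there. Cyp4f13 read 9.31, 10.29, 9.37, 10.31 and 10.07 in WT acute DSS mice, against 10.87, 10.91 and 11.07 in WT acute controls (-1.08 ± 0.19, adjusted p = 5.31e-05). Cyp4f16 averaged 9.13 ± 0.42 (SD, n = 5) against 10.09 ± 0.15 (n = 3) in the same groups (adjusted p = 0.000577). Neither overlapped between groups, and in KO acute DSS the Cyp4f13 difference was -0.62 ± 0.19 (adjusted p = 0.0843).

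Cyp4f18, which in mouse neutrophils hydroxylates leukotriene B4, moved the other way. It read 8.99, 8.04, 9.80, 8.16 and 8.72 in WT acute DSS mice, against 7.77, 7.65 and 7.54 in WT acute controls (1.09 ± 0.31, adjusted p = 0.00534). It read 8.04, 8.19, 8.94, 8.43 and 8.07 in WT chronic DSS mice, against 7.42, 7.67, 7.20, 7.89 and 7.54 in WT chronic controls (0.79 ± 0.27, adjusted p = 0.0427). All DSS mice were above all controls in both phases. Without WT acute DSS replicates 1 and 3 the acute difference was 0.65 and did not pass, and the chronic call was lost without any of 7 arrays. In KO colon the differences were 0.63 ± 0.30 in acute (adjusted p = 0.286) and 0.57 ± 0.27 in chronic DSS (adjusted p = 0.188).

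The neutrophil list was higher in the acute DSS mice of both genotypes, but not in every chronic DSS mouse. Its 8 genes averaged 6.89 to 9.35 in KO acute DSS mice against 6.69 to 6.82 in KO acute controls, and 8.78 to 11.09 in WT acute DSS mice against 6.76 to 6.84 in WT acute controls. In WT chronic DSS mice the list averaged 9.02, 7.12, 8.99, 8.97 and 6.88, against 6.82 to 6.96 in WT chronic controls. Replicate 5 was thus inside the control range of the list, while its Cyp4f18 value was above every control. Of the 8 genes, 7 were higher in WT acute and 5 in WT chronic DSS, against 1 in KO acute and 0 in KO chronic DSS. Ly6g was not higher in any of these. The part of neutrophil number in the Cyp4f18 difference was not tested.

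The largest rise among called members was that of Cyp7b1, which hydroxylates oxysterols and steroids. It read 10.07, 8.93, 10.43, 7.96 and 8.77 in WT acute DSS mice, against 6.63, 6.50 and 6.59 in WT acute controls, a difference of 2.66 ± 0.43, 6.31-fold (adjusted p = 1.7e-05). The call held without any 1 array and without replicates 1 and 3. In KO acute DSS mice it read 6.65, 8.36, 7.31, 7.17, 6.35 and 9.21, against 6.67, 6.75 and 6.86 in KO acute controls (0.75 ± 0.42, adjusted p = 0.383), with overlap. In chronic DSS the difference was 0.40 ± 0.38 in KO (adjusted p = 0.556) and 0.68 ± 0.38 in WT colon (adjusted p = 0.255).

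Fibroblast genes such as Col1a1 and Pdgfra were higher alongside Cyp7b1 in WT acute DSS, 6 of 8 with a median of 1.29. The list mean was 9.78 to 11.34 in KO acute DSS mice, against 10.26 to 10.50 in KO acute controls, and 11.31 to 12.28 in WT acute DSS mice, against 10.49 to 10.67 in WT acute controls. KO acute DSS replicates 2 and 6, the 2 highest for Cyp7b1, were also the 2 highest for the fibroblast list (11.00 and 11.34) and the neutrophil list (9.35 and 8.89). The same mice were highest for a list of 8 endothelial genes (8.90 and 9.65). For a list of 8 macrophage genes replicate 3 was highest (9.27, against 9.22 and 9.13 in replicates 2 and 6). The part of these cell types in the Cyp7b1 difference was not tested.

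Cyp46a1, which hydroxylates cholesterol in brain, read 7.66, 7.71, 7.60, 7.49 and 7.61 in WT acute DSS mice, against 7.33, 7.03 and 7.09 in WT acute controls (0.46 ± 0.09, adjusted p = 9.5e-05), without overlap; in WT chronic DSS the difference was -0.01 ± 0.08. Cyp27a1, the mitochondrial sterol hydroxylase of bile acid synthesis, was lower in WT chronic DSS, where it read 9.14, 9.22, 9.15, 9.17 and 9.01, against 10.29, 10.37, 10.20, 9.51 and 9.55 in WT chronic controls (-0.85 ± 0.21, adjusted p = 0.00516). Its groups did not overlap, but controls 4 and 5, which have the animal series of the KO chronic mice, were lower than the other three. Cyp51, the lanosterol demethylase of cholesterol synthesis, ranged from 8.90 to 10.72 over the acute and chronic DSS mice and passed in no comparison, as was the case for Cyp7a1 and Cyp8b1, classical bile acid enzymes of liver.

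Cyp1a1, the classical target of the aryl hydrocarbon receptor, read 6.16, 6.46, 6.13, 6.07 and 6.17 in WT acute DSS mice, against 6.36, 6.14 and 5.96 in controls (0.04 ± 0.10, adjusted p = 0.769). Its 37 values lay between 5.96 and 6.64, and its mean was below 7.25. Cyp1b1 differed by 0.47 ± 0.15 in WT acute DSS (adjusted p = 0.015), where replicate 2 at 7.73 was well above the other four at 6.48 to 6.75; Cyp1a2 differed by 0.26 ± 0.10 (adjusted p = 0.0297), a call lost in 4 of 8 refits with 1 array left out. None of the 6 Cyp3a genes passed between DSS and control; Cyp3a13, expressed in mouse liver and gut, had the largest difference, -1.63 ± 0.68 in WT acute DSS (adjusted p = 0.0549).

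Small rises in WT acute DSS were also called for Cyp2b23 (0.44), Cyp26c1 (0.27), a retinoic acid hydroxylase, and Cyp2b10 (0.19). Neither Cyp11a1, Cyp27b1, Cyp26b1 nor Cyp11b2 passed there. Cyp11a1, which starts steroid synthesis from cholesterol, differed by 0.05 ± 0.13 in WT acute DSS (adjusted p = 0.776), and Cyp27b1, which activates vitamin D, by 0.15 ± 0.09 (adjusted p = 0.195). Cyp26b1, which clears retinoic acid, differed by 0.22 ± 0.12 (adjusted p = 0.154), and the aldosterone synthase Cyp11b2 by 0.16 ± 0.08 (adjusted p = 0.108).

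Knockout and wild-type mice given acute DSS differed in 18 members, 12 higher and 6 lower in KO. These were 14.6% of members against 15.8% of all genes for higher and 7.32% against 15.2% for lower, and the median difference was 0.12 over members and 0.02 over all genes. WT acute DSS mice enter both this comparison and the WT DSS effect. Within the animal series both genotypes share (KO acute DSS replicates 1 to 3) 7 members passed, 8.54% against 15.6% of all genes in either direction, and 5 of them were among the 18. Without WT acute DSS replicates 1 and 3, 5 passed, 6.1% against 12.5% of all genes, all among the 18: Cyp1b1, Cyp2b9, Cyp2e1, Cyp3a44 and Cyp4f40.

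Cyp4f40, of the leukotriene and fatty acid hydroxylating Cyp4f group, read 10.35, 10.66, 10.52, 10.77, 10.48 and 10.43 in KO acute DSS mice, against 8.91, 10.11, 7.86, 10.20 and 10.15 in WT acute DSS mice (1.09 ± 0.24, adjusted p = 0.00074). Every KO mouse was above every WT mouse. Cyp3a13 read 11.34, 9.76, 10.41, 11.80, 11.25 and 11.32 in KO acute DSS mice, against 7.50, 11.17, 5.88, 10.88 and 10.35 in WT acute DSS mice (1.83 ± 0.57, adjusted p = 0.0136). Here the groups overlapped, and the call was lost without WT replicate 1 (1.41), without WT replicate 3 (1.01) and without both (0.18). For Cyp2s1 the difference of 1.28 ± 0.32 (adjusted p = 0.00246) was 0.37 without those 2 mice, and for Cyp2d34 0.99 ± 0.34 (adjusted p = 0.0261) became 0.03. Mature colonocyte genes stood in the same direction, with 4 of 10 higher in KO acute DSS colon (median 1.01), and their part in these differences was not tested.

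Cyp2e1, which oxidises ethanol and acetone, was lower in KO acute DSS colon. It read 6.05, 6.84, 6.25, 8.35, 6.93 and 6.84 in KO acute DSS mice, against 10.72, 8.94, 5.81, 9.14 and 10.35 in WT acute DSS mice (-2.12 ± 0.67, adjusted p = 0.015). WT replicate 3 was the lowest of all 11 mice, while the other four WT mice were above every KO mouse. The call was lost without WT replicate 1 (-1.68) or WT replicate 5 (-1.78). The list of 7 adipocyte genes had its lowest WT mean in the same replicate (7.61, the others 8.76 to 9.41), against 7.60 to 8.54 in KO acute DSS mice. Of the 7 genes, 1 was lower in KO acute DSS colon (median -0.92), and the part of fat tissue in the Cyp2e1 difference was not tested. The Cyp2e1 difference between DSS and control was -0.84 ± 0.78 in KO acute colon (adjusted p = 0.633) and 1.53 ± 0.80 in WT acute colon (adjusted p = 0.126).

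Cyp7b1 differed by -1.72 ± 0.36 between KO and WT acute DSS colon (adjusted p = 0.000488), although KO replicates 2 and 6 reached the WT range. Cyp2j9, of the Cyp2j subfamily that oxidises arachidonic acid, read 7.47, 7.26, 7.39, 7.58, 7.43 and 7.89 in KO acute DSS mice, against 8.03, 7.68, 7.83, 7.93 and 7.95 in WT acute DSS mice (-0.38 ± 0.11, adjusted p = 0.00716), with KO replicate 6 alone inside the WT range. The smaller falls were those of Cyp1b1 (-0.36), Cyp20a1 (-0.33) and Cyp46a1 (-0.20). Cyp20a1, whose substrate is not known, differed by -0.03 within the shared animal series. The smaller rises were Cyp2d13 (0.91), Cyp2w1 (0.86), Cyp3a44 (0.58), Cyp4f13 (0.57), Cyp3a11 (0.28), Cyp2b9 (0.27), Cyp2c50 (0.21) and Cyp2c38 (0.20), of which Cyp2w1, Cyp3a44 and Cyp2b9 did not overlap between genotypes. Of 11 refits with 1 array left out, 8 lost the call of Cyp46a1, 7 that of Cyp2d13, and 6 each those of Cyp3a11 and Cyp2c50. The Cyp20a1 call was lost in 3 and the Cyp1b1 call in 2.

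In the other 3 genotype comparisons almost nothing passed. Among acute controls Cyp4f15 read 7.30, 7.13 and 7.03 in KO mice, against 6.73, 6.47 and 6.54 in WT mice (0.57 ± 0.11, adjusted p = 0.00908), 1 of 82 members, or 1.22% against 1.12% of all genes in either direction. The call was lost with the animal series as a covariate or without any of 3 arrays. The animal series differs with the genotype here, and 13 clock genes averaged 9.45 to 9.49 in KO acute controls against 8.91 to 9.01 in WT acute controls. Between genotypes no member passed by limma in chronic DSS (2.48% of all genes did) or in chronic controls (0.1% of all genes). In each, 9 of 82 members had an unadjusted p under 0.05. Of all 19938 genes, 3378 did so in chronic DSS and 1886 in chronic controls.

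**Figure D4:**
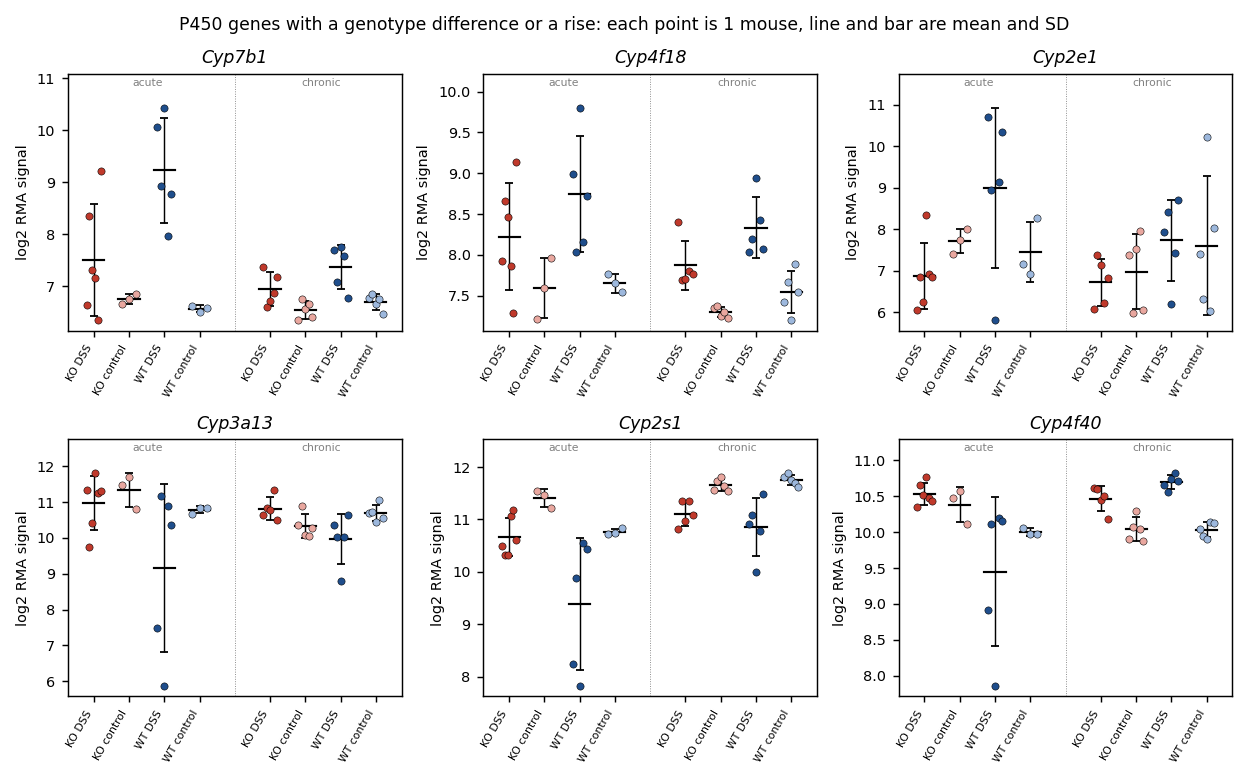
Log2 RMA signal of 6 P450 genes with a genotype difference in acute DSS or a rise with DSS, 1 point per mouse, in 8 groups on the x axis (red KO, blue WT; dark DSS, pale control), with mean and SD as lines. Cyp7b1 spans 6.35 to 9.21 in KO and 7.96 to 10.43 in WT acute DSS colon, and the 2 lowest WT acute DSS points of Cyp3a13, Cyp2s1 and Cyp4f40 are replicates 1 and 3.

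The genotype by DSS interaction, which tests whether the DSS effect differs between KO and WT, passed for Cyp7b1 alone in the acute phase: -1.91 ± 0.60 (adjusted p = 0.0354), 1 of 82 members against 12.3% of all genes in either direction. The call was lost without 11 of 17 arrays, each left out in turn. In the chronic phase no member passed by limma, against 0.421% of all genes. There 11 of 82 members had an unadjusted p under 0.05, as did 3022 of all 19938 genes. Falls of Cyp2f2, Cyp2c68 and Cyp2d12 that passed in WT and not in KO acute colon were therefore not shown to differ by genotype.

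The DSS effect in WT colon differed between phases for 5 members, 6.1% against 17% of all genes, as far as separate control groups allow. Cyp7b1 (-1.98 ± 0.57, adjusted p = 0.0175), Cyp46a1 (-0.47 ± 0.12, adjusted p = 0.00619) and Cyp2b23 (-0.44 ± 0.15, adjusted p = 0.0428) had a lower effect in the chronic than in the acute phase. Cyp4f40 (1.22 ± 0.38, adjusted p = 0.0254) and Cyp4f13 (0.74 ± 0.26, adjusted p = 0.0434) had a higher one. Leaving out 1 array at a time lost the Cyp2b23 and Cyp4f13 calls in 12 of 18 refits each, and the Cyp4f40 call in 3. In WT acute DSS replicates 1 and 3 Cyp4f40 read 8.91 and 7.86. The other mice of that group read 10.11 to 10.20, above the WT acute controls at 9.97 to 10.06. Without WT acute DSS replicates 1 and 3, 2 of these 5 passed. For Cyp4f40 the chronic WT mice read 10.66, 10.56, 10.74, 10.82 and 10.72 with DSS, against 9.91 to 10.14 without, a difference of 0.67 ± 0.25 that did not pass (adjusted p = 0.0682) although the groups did not overlap. In KO colon no member's effect differed between phases by limma, against 0.01% of all genes. There 14 of 82 members had an unadjusted p under 0.05, as did 2279 of all 19938 genes.

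Genes that work with P450 enzymes were taken as lists, and their counts stand beside the shares of all genes. In WT acute DSS colon those shares were 21.8% lower and 19.4% higher, and between KO and WT acute DSS colon 15.8% higher and 15.2% lower in KO. Of 17 transcription regulators, 7 were lower and 2 higher in WT acute DSS colon, and 7 were higher and 3 lower in KO than in WT acute DSS colon. The coactivator Ppargc1a was lower in WT acute (-2.09 ± 0.32, adjusted p = 6.75e-06) and WT chronic DSS (-1.71 ± 0.27, adjusted p = 6.96e-05). Vdr, the vitamin D receptor (-1.63), Nr5a2, a regulator of bile acid and steroid genes (-1.41), and Nr1i2, the xenobiotic receptor of Cyp3a genes (-1.35), were lower in WT acute DSS and passed in no other DSS comparison. Hnf4a differed by -0.81 ± 0.22 in WT acute DSS (adjusted p = 0.00442) and by -0.17 ± 0.19 in WT chronic DSS (adjusted p = 0.649). Ahr differed by 0.17 ± 0.15 in WT acute DSS (adjusted p = 0.372), and none of the 17 passed in KO DSS colon.

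Of 6 measured electron donors, Cyb5b (-0.46), Fdx1 (-0.36) and Cyb5a (-0.26) were lower in WT acute DSS, where 21.8% of all genes were. Of 8 heme genes, 4 were lower there, with Urod at -0.88 ± 0.11 (adjusted p = 2.68e-07) and Uros at -0.74 ± 0.07 (adjusted p = 1.84e-08), and 2 were higher, with Hmox1, the oxygenase that breaks heme down, at 2.01 ± 0.30 (adjusted p = 5.52e-06). Alas1, the first enzyme of heme synthesis, was higher in KO chronic (0.65 ± 0.16, adjusted p = 0.0103) and WT chronic DSS (0.81 ± 0.16, adjusted p = 0.000629), where 2.47% and 5.79% of all genes were higher.

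Of 7 measured enzymes that act on P450 products, 3 were lower in KO acute and 6 in WT acute DSS, against 0.853% and 21.8% of all genes. In WT chronic DSS 3 were lower and 1 higher, against 8.58% and 5.79% of all genes, and the higher one was the quinone reductase Nqo1 (1.31 ± 0.28, adjusted p = 0.00153). Gstt1, a glutathione transferase, was lower in all 4 DSS comparisons: -0.80 ± 0.11 in KO acute (adjusted p = 0.000429), -1.27 ± 0.12 in WT acute (adjusted p = 7.47e-09), -0.57 ± 0.10 in KO chronic (adjusted p = 0.000853) and -0.87 ± 0.10 in WT chronic DSS (adjusted p = 1.02e-06). Ephx1, the microsomal epoxide hydrolase, was lower in KO acute (-1.06 ± 0.14, adjusted p = 0.000268), WT acute (-0.57 ± 0.15, adjusted p = 0.00245) and WT chronic DSS (-0.49 ± 0.13, adjusted p = 0.00804). Sult1a1, a sulphotransferase, was lower in WT acute (-2.15 ± 0.49, adjusted p = 0.000726) and WT chronic DSS (-1.54 ± 0.42, adjusted p = 0.0122). Of the 2 P450 enzymes with other symbols, thromboxane synthase Tbxas1 passed in no DSS comparison and prostacyclin synthase Ptgis was lower in WT chronic DSS (-0.37 ± 0.10, adjusted p = 0.00977).

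Of the 82 members, 42 passed in none of the 12 comparisons. The share of all genes that passed in none was not computed, so this count cannot be read as particular to P450 members. The 42 include every measured member of the Cyp4a, Cyp2g, Cyp2t, Cyp8b, Cyp17a, Cyp21a and Cyp27b subfamilies, all with mean signals of at most 7.25. Bright members are among the 42 too: Cyp2c55 (mean 11.27), Cyp4f14 (10.29), Cyp51 (9.90), Cyp2j6 (9.75), Cyp2d26 (9.70) and Cyp2c65 (9.05).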

How the data were processed

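RNA from 37 mouse colons was labelled with biotin as cDNA and measured on 1 array per mouse (Affymetrix Mouse Gene 1.0 ST), per the labels' protocols. The authors deposited log2 RMA values, per the submitters' processing notes; the software version and log base are not stated, and log2 was taken from the range of values, 3.03 to 14.96. No depth applies to arrays, and the number of mice limits the precision. Of 35511 probe clusters, 23410 were listed in the platform annotation, 21789 with 1 symbol and 1621 with several. Per symbol, the cluster with the highest mean over 37 arrays was kept, which gave 19938 genes.

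One linear model with a mean per group was fitted to all 37 arrays with limma 3.58.1 in R 4.3.3 (lmFit, eBayes, 29 residual degrees of freedom), and 12 comparisons were adjusted by Benjamini-Hochberg over all genes. On simulated data over 19938 genes, a small part of the genes was changed in WT acute DSS by 0.5, 1 or 2, and 55.2%, 95.5% and 98.5% of these were recovered. The simulated noise was normal, with the same spread in every group. In the data the spread differed, with an SD for Cyp2c55 of 2.88 in WT acute DSS against 0.21 in WT acute controls. The recovered shares therefore do not apply to such genes. Each sample is labelled as a separate animal. Members, gene lists and tests were chosen with earlier results of these data known. Values mouse by mouse go to 29 members unless said otherwise: up to 4 called members in each direction per DSS or genotype comparison, interaction calls, the brightest of each family and a fixed list of textbook members; of the gene lists, up to 4 genes per comparison. Alternatives changed the filter, normalization, prior, model, samples and animal series.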

Additional observations from a re-analysis of the deposited data

Results flagged for a closer look

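In groups of 4 to 6 mice, 6 of 174 sets of values held 1 mouse far from the others by Dixon's test; chance marks about 1 in 20. Cyp1a1 was 6.46 and Cyp1b1 7.73 in WT acute DSS replicate 2, against 6.07 to 6.17 and 6.48 to 6.75 in the other mice of the group. Without that mouse the Cyp1b1 difference between KO and WT acute DSS was -0.14 and did not pass. Cyp2c23 was 7.03 in WT acute DSS replicate 5 (others 6.54 to 6.63). In KO chronic control replicate 2, Cyp2c23 was 7.68 (others 7.00 to 7.17) and Cyp2d12 was 9.70 (others 8.05 to 8.49). Cyp4f18 was 8.40 in KO chronic DSS replicate 1 (others 7.69 to 7.80).

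The DSS effect differed between genotypes for Cyp7b1 in the acute phase (-1.91). Between phases in WT colon, the chronic effect minus the acute effect was -1.98 for Cyp7b1, -0.47 for Cyp46a1, -0.44 for Cyp2b23, 0.74 for Cyp4f13 and 1.22 for Cyp4f40. The Cyp2b23 and Cyp4f13 calls were each lost in 12 of 18 refits with 1 array left out. The animal series also differ between phases, and their part in these values was not tested.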

How the results depend on the processing

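Of 1343 refits of the 71 called member differences, 1087 kept direction and call, 256 kept direction and lost the call, and none reversed. The trended and robust prior lost no call. The KO acute DSS count of 2 was 1 with cyclic loess, with all probe clusters tested or with sex as a covariate, and 0 with the animal series as a covariate, within 1 series, with only the groups compared, or without the arrays with Y-linked signal. In these settings 0% to 1.15% of all genes passed. With only the groups compared, the counts were 15 in WT acute DSS (main 26), 8 in KO chronic DSS (4), 23 in WT chronic DSS (14), 4 between genotypes in acute DSS (18), 10 between acute controls (1), 0 for the acute interaction (1) and 3 between WT phases (5). In the same order, these were 18.3%, 9.76%, 28%, 4.88%, 12.2%, 0% and 3.66% of members. The shares of all genes in either direction were 28.8%, 7.53%, 20.2%, 11.2%, 4.83%, 2.69% and 15.6%, in that order. With the dimmest 33.33% of genes left out, only 34 members were tested, and none of these lost a call. The counts were 17 in WT acute DSS (50% of these members against 51.7% of all genes tested) and 1 in KO chronic DSS (2.94% against 10.2%). They were 0 between acute controls (0% against 1.81%) and 2 for the acute interaction (5.88% against 19.2%). The acute interaction count was 2 with cyclic loess and 0 with all clusters or without the arrays with Y-linked signal, and the WT phase count was 3 with all clusters. Of all genes, 11.3%, 9.27% and 10.1% passed in these acute interaction settings, and 14.7% in that phase setting. With the animal series as a covariate, 2 members passed between acute controls (2.44% against 1.81% of all genes) and 1 in the chronic interaction (1.22% against 0.933%). Within 1 series, 7 passed between genotypes in acute DSS (8.54% against 15.6% of all genes) and 21 in WT chronic DSS (25.6% against 15.5%). Without WT acute DSS replicates 1 and 3, a setting chosen after seeing the data, 5 passed between genotypes in acute DSS (6.1% against 12.5% of all genes). In that setting 2 passed between WT phases (2.44% against 7.48%). The causes of these shifts were not tested.

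Leaving out each array in turn gave 0 to 6 members in KO acute DSS, 19 to 29 in WT acute DSS, 2 to 6 in KO chronic DSS and 11 to 15 in WT chronic DSS. Between genotypes it gave 10 to 23 in acute DSS, 0 to 2 in acute controls, 0 to 2 in chronic DSS and 0 to 1 in chronic controls. It gave 0 to 6 for the acute and 0 to 2 for the chronic interaction, and 2 to 6 in WT and 0 to 0 in KO colon between phases. Shares of all genes are not given for these refits, so the ranges cannot be read as particular to P450 members. No paired analysis was possible because replicate numbers were given in accession order and pair no mice. Of the 82 members, 48 lie in that dim part of the array, and the number of mice limits what small differences could pass.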
